A study of Ambystoma mexicanum with 20 samples.

Results

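The epidermis and the underlying soft tissue (ST) of the intact axolotl forelimb were compared in 4 RNA sequencing samples, 2 of each tissue, out of 20 samples in the series. The members were the samples labelled 0 days post-amputation (dpa), and of the 180605 transcripts in the table the 107026 that were above 0 TPM in 5 or more samples were tested. The animals were juvenile axolotls of no named strain or transgene, and each replicate pooled both forelimbs of 2 animals. The labels name the epidermal samples as wound epidermis and give the treatment of both groups as DMSO, although the limbs had not yet regenerated. The other 16 samples were taken at 3 and 8 dpa after injection of DMSO or of MS-275, an inhibitor of histone deacetylases, and the DMSO samples among them are compared at the end. In the intact-limb comparison they shared the estimate of the spread, they counted toward the filter, so that a transcript seen only in the 4 intact-limb samples was not tested, and the lists that gave the gene symbols rest partly on them. By the animal numbers given, 20 for all 20 samples, both tissues of a condition came from the same animals, but which epidermal pool belongs with which ST pool is not given in the sources used here. TPM is the share of a transcript among all transcripts of its sample, corrected for transcript length, so it says nothing of how much RNA a tissue held. In bulk tissue, fewer cells of a type and less RNA of that type per cell cannot be told apart.

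The amphibian epidermis is a stratified epithelium of living keratinocytes, with mucous gland cells, mitochondria-rich transport cells and a basal layer that is anchored to a basement membrane. It keeps water and ions in balance and forms the wound epidermis after amputation. The ST beneath it holds skeletal muscle, dermal and other connective tissue, tendon, nerve and vessels, and it supplies most of the cells of the blastema.

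The tissue labels were checked against cell type markers. Summed over the 8 epidermal markers, the epidermis held 1047 and 1037 TPM in replicates 1 and 2, and ST held 136 and 159 TPM. Of these markers, 7 were called higher in the epidermis, and CDH1, the cadherin of epithelial adherens junctions, was not. The 7 skeletal muscle markers summed to 16501 and 30244 TPM in ST against 57.2 and 2.65 TPM in the epidermis, so that epidermis replicate 1 held more muscle transcript than replicate 2. Keratinocyte and muscle markers thus followed the labels.

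Markers of fibrous connective tissue did not, by sums of TPM as deposited. The 6 markers of fibrous connective tissue summed to 1457 and 3806 TPM in the epidermis and to 1110 and 1338 TPM in ST, and 1 of the 6 was called, higher in ST. COL1A1 and COL1A2, neither of them called, made up most of each sum. In the epidermis COL1A1 was at 377 and 1388 TPM and COL1A2 at 545 and 1784 TPM. By this sum, which rests mainly on these collagens, the epidermal samples were not depleted of the marker set. The 4 erythroid markers summed to 35049 and 40790 TPM in the epidermis and to 118114 and 7563 TPM in ST, which sets the ST replicates apart from each other. The sum of the 4 endothelial markers stayed between 2.02 and 6.40 TPM in all samples. Of the 4 Schwann cell markers, 3 were called higher in ST and 0 in the epidermis. Of the 4 leukocyte markers, 3 were called higher in the epidermis and 1 in ST, and of the 4 cartilage markers 1 and 1. The part of these marker levels in the results below was not tested.

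**Figure D1:**
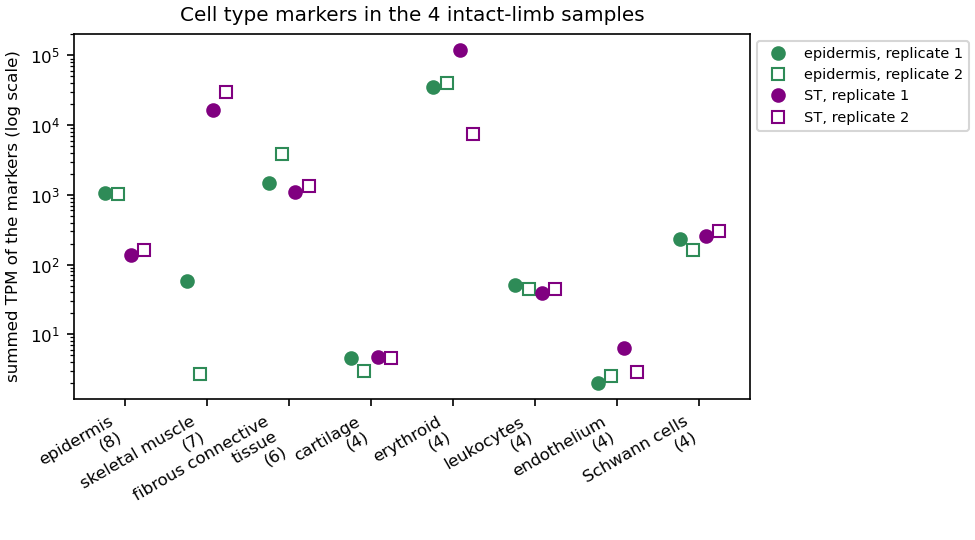
Summed TPM (log scale) of the markers of 8 cell types in the epidermis (green) and ST (purple) of the intact limb, one point per sample, filled circles for replicate 1 and open squares for replicate 2, with the number of markers in parentheses. Muscle markers lay at 16501 and 30244 TPM in ST against 57.2 and 2.65 TPM in the epidermis, and erythroid markers at 118114 and 7563 TPM in the ST replicates.

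Between tissues, 20394 of 107026 transcripts (19.1%) differed at an adjusted p under 0.05 in limma on log2(TPM + 0.1). These calls rest on the spread shared with the other samples, since limma on the 4 intact-limb samples alone called 0 transcripts, with 25141 at an unadjusted p under 0.05, and none of the intact-limb calls named below was made there. Of the 20394, 15871 (14.8% of those tested) were higher in the epidermis and 4523 (4.23%) in ST. The excess toward the epidermis depended on the scale. In ST, 26.1% and 14.4% of the TPM belonged to the 10 transcripts highest in each sample, compared with 12.7% and 10.4% in the epidermis. The part of these transcripts in the excess was not tested. As deposited, the median log2 difference of all transcripts was 0.40. After each sample was divided by its median ratio to the typical transcript, here called rescaled TPM, this median was 0.00 and the calls were nearly balanced, with 9036 (8.44%) higher in the epidermis and 8882 (8.30%) in ST. The share of calls higher in the epidermis fell from 77.8% to 50.4%. This scaling aligns the typical transcript across samples, so a median near 0 and a more even balance were largely set in advance. Each list below is therefore given on both scales. ST replicate 2 had 72566 transcripts above 0 TPM, the fewest of the 20 samples. ST replicate 1 had 87906, and epidermis replicates 1 and 2 had 90611 and 83384. The part of this in the calls was not tested. Leaving out ST replicate 2 lowered the transcripts higher in the epidermis to 10043, and leaving out epidermis replicate 2 lowered them to 10235 and all calls to 13494.

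The largest differences were on the ST side. Among called transcripts, 64 were higher in ST by more than 10 on the log2 scale and 5 were higher in the epidermis by as much, while 14490 were higher in the epidermis and 4329 in ST by more than 1. Gene symbols could be paired with 4777 transcripts of 3517 symbols, and the transcript with the highest mean TPM stood for each symbol. All of these come from the study's own lists of transcripts that changed after amputation in either tissue, so they were chosen partly on these samples and are called more often than transcripts at large. Of the 3517 symbols, 32.5% were called higher in the epidermis and 18.6% in ST as deposited, and 18.1% and 29.0% with rescaled TPM. The counts for the lists below are to be read against these shares.

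Keratins, the intermediate filament proteins of epithelial cells, had the highest median of the 27 lists. Of 14 keratins, 12 were called higher in the epidermis and 0 were called higher in ST on either scale, and the median log2 difference was 4.24 as deposited and 3.51 rescaled. KRT10, a keratin of the suprabasal layers in mammals, was at 925 and 1828 TPM in the epidermis and at 19.8 and 20.3 TPM in ST (log2 difference 6.01 ± 0.88 SE, adjusted p = 0.000279). XK81B2, a keratin first named in Xenopus, was at 1187 and 1817 TPM against 28.5 and 41.5 TPM (5.41 ± 0.56, adjusted p = 1.87e-05). KRT15, a keratin of basal cells, was at 774 and 618 TPM against 27.7 and 44.9 TPM (4.29 ± 0.66, adjusted p = 0.000411). In all of them the lower epidermal sample lay far above the higher ST sample. KRT12 reached 433 and 559.7 TPM against 6.77 and 5.68 TPM (6.29 ± 0.63, adjusted p = 1.56e-05). The paired transcripts of all 14 keratins together made up 0.502% and 0.666% of the TPM in the epidermis and 0.0133% and 0.0216% in ST.

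Genes of the cornified envelope and of barrier lipids were less uniform. Of 16 members, 11 were called higher in the epidermis and 1 in ST (median log2 difference 2.28), and with rescaled TPM 8 and 1 were called. TGM3, a transglutaminase that cross-links envelope proteins, was at 85.2 and 94.5 TPM in the epidermis and at 3.87 and 7.29 TPM in ST (4.05 ± 0.71, adjusted p = 0.00107). CSTB, an inhibitor of cathepsins, was at 327 and 397 TPM against 98.0 and 172 TPM (1.47 ± 0.24, adjusted p = 0.000617), and this call was lost with rescaled TPM (0.72, adjusted p = 0.183). CNFN, cornifelin, did not separate the tissues, with 26.1 and 20.6 TPM in the epidermis and 19.3 and 27.5 TPM in ST. EPHX3, an epoxide hydrolase that acts in barrier lipid synthesis in mammals, went the other way, with 13.4 and 13.7 TPM in the epidermis against 30.8 and 26.2 TPM in ST (-1.06 ± 0.19, adjusted p = 0.00111).

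Regulators of epithelial identity were low in absolute terms but distinct. Of 7 transcription and splicing factors, 5 were called higher in the epidermis on both scales, with a median of 2.86. TP63, a master regulator of stratified epithelia, was at 9.04 and 14.1 TPM in the epidermis and at 0.28 and 0.98 TPM in ST (4.15 ± 0.52, adjusted p = 8.59e-05). ZNF750, a factor of terminal keratinocyte differentiation, was at 10.6 and 12.6 TPM against 0.38 and 0.56 TPM (4.37 ± 0.42, adjusted p = 1.14e-05). TEAD3, a partner of the Hippo pathway coactivators, was level at 6.39 and 6.42 TPM against 7.26 and 5.28 TPM. Its difference of 0.05 as deposited became -0.69 with rescaled TPM and was then called higher in ST (adjusted p = 0.035).

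Genes of desmosomes, adherens junctions and tight junctions followed the keratins. Of 17 members, 13 were called higher in the epidermis and 0 in ST, and 12 and 0 with rescaled TPM, with medians of 3.39 and 2.85. DSG2, a desmosomal cadherin, was at 77.5 and 91.6 TPM in the epidermis and at 3.75 and 5.18 TPM in ST (4.23 ± 0.48, adjusted p = 4.14e-05). PERP, a desmosomal membrane protein, was at 79.0 and 91.8 TPM against 15.9 and 13.6 TPM (2.53 ± 0.21, adjusted p = 3.81e-06). CDH1 was the exception among the abundant members. It stood at 96.8 and 125 TPM in the epidermis and at 88.7 and 85.8 TPM in ST (0.33 ± 0.26, adjusted p = 0.462), and the sign of this difference turned with rescaled TPM (-0.42).

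Secretory genes were also mostly epidermal. Of 26 genes of mucus and secretory epithelium, 20 were called higher in the epidermis and 1 in ST (median log2 difference 3.50), and 18 and 3 with rescaled TPM. AGR2-A, a disulphide isomerase needed for mucin folding, was at 358 and 377 TPM in the epidermis and at 14.9 and 38.5 TPM in ST (3.93 ± 0.41, adjusted p = 1.99e-05). UMOD and GP2 encode related secreted or membrane-anchored zona pellucida domain glycoproteins. UMOD was at 324 and 249 TPM against 26.1 and 27.7 TPM (3.40 ± 0.49, adjusted p = 0.000267), and GP2 was at 157 and 307 TPM against 11.7 and 29.7 TPM (3.55 ± 0.69, adjusted p = 0.00241). MUC5AC, a gel-forming mucin, was at 6.52 and 9.77 TPM in the epidermis and was listed at 0 in both ST samples (adjusted p = 3.05e-05). ITLN2, an intelectin that binds carbohydrates of microbes, was the member higher in ST, with 7.89 and 14.2 TPM against 0.14 and 0 TPM (-6.11 ± 0.70, adjusted p = 4.11e-05).

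Genes of ion, ammonium and water transport were mostly called higher in the epidermis. Of 25 members, 17 were called higher in the epidermis and 4 in ST, and 14 and 4 with rescaled TPM. RHBG-B, an ammonium transporter, was at 72.8 and 90.6 TPM in the epidermis and at 2.67 and 4.99 TPM in ST (4.44 ± 0.56, adjusted p = 9.47e-05). AQP4, a water channel, was at 23.3 and 41.5 TPM against 0.72 and 0.97 TPM (5.06 ± 0.48, adjusted p = 1.04e-05). ATP1B3, a subunit of the sodium pump that most cells use, was at 43.9 and 42.9 TPM against 29.9 and 31.2 TPM, which was not called (0.51 ± 0.21, adjusted p = 0.113) and changed sign with rescaled TPM (-0.24). CA9, a carbonic anhydrase, was higher in ST, with 3.70 and 4.53 TPM against 0.02 and 0 TPM (-5.26 ± 0.51, adjusted p = 1.26e-05). CLIC5, a member of the chloride intracellular channel family, was also higher in ST, with 5.51 and 3.79 TPM against 0.28 and 0.03 TPM (-4.39 ± 0.57, adjusted p = 0.000107).

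**Figure D2:**
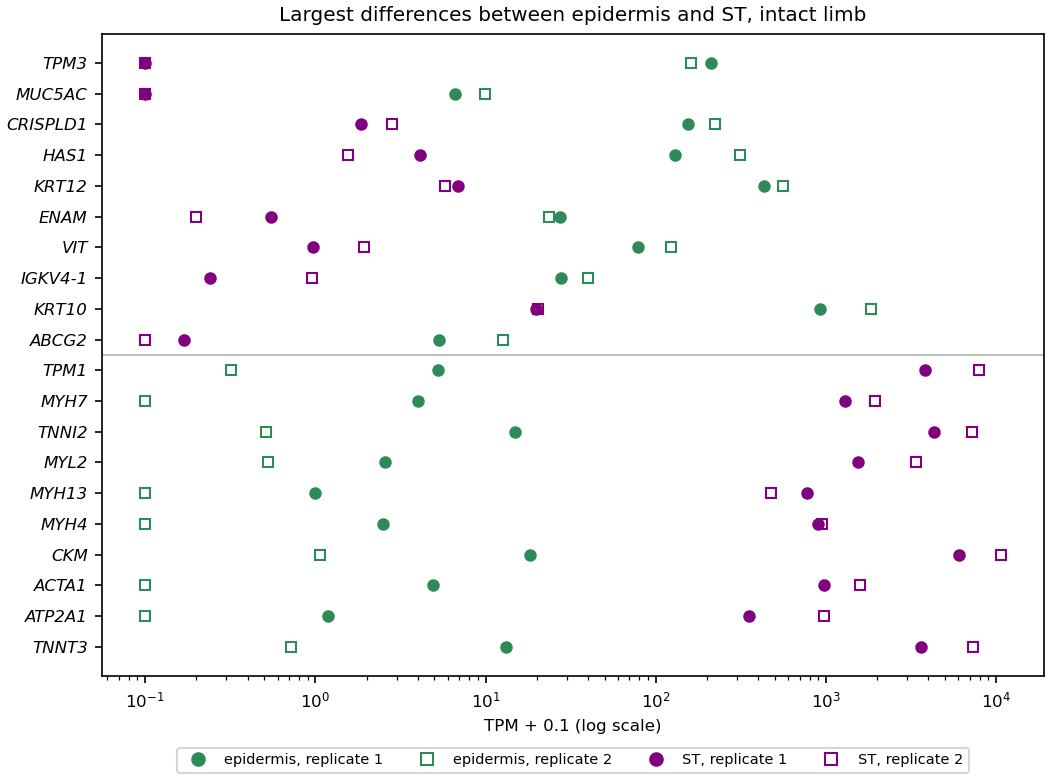
TPM + 0.1 (log scale) in each intact-limb sample for the 10 paired symbols with the largest difference toward the epidermis (upper part) and toward ST (lower part), green for the epidermis and purple for ST, filled circles for replicate 1 and open squares for replicate 2. TPM3 and MUC5AC lie at 0.1 in ST because they were listed at 0, and every muscle transcript lies further right in epidermis replicate 1 than in replicate 2.

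Among the 10 paired symbols with the largest differences toward the epidermis were matrix and secreted proteins beside the keratins. HAS1, a synthase of hyaluronan, was at 129.6 and 313 TPM in the epidermis and at 4.01 and 1.45 TPM in ST (6.32 ± 0.64, adjusted p = 1.69e-05). CRISPLD1, a secreted protein with a cysteine-rich domain, was at 153 and 223 TPM against 1.76 and 2.72 TPM (6.34 ± 0.47, adjusted p = 2.25e-06). VIT, the matrix protein vitrin, was at 78.9 and 122 TPM against 0.87 and 1.84 TPM (6.16 ± 0.57, adjusted p = 9.18e-06). Each of these was lower in both ST samples than in either epidermal sample by a factor that exceeded the spread of the replicates. ENAM, named for the enamel protein enamelin of mammals, was at 27.2 and 23.5 TPM against 0.45 and 0.10 TPM (6.26 ± 0.46, adjusted p = 2.11e-06). IGKV4-1, matched to an immunoglobulin light chain segment, was at 27.5 and 39.9 TPM against 0.14 and 0.85 TPM (6.12 ± 0.78, adjusted p = 9.40e-05). ABCG2, an efflux transporter, was at 5.26 and 12.5 TPM against 0.07 and 0 TPM (5.98 ± 0.63, adjusted p = 2.26e-05).

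Sarcomere genes had the median farthest from 0 of the 27 lists. Of 52 sarcomere genes, 50 were called higher in ST and 2 in the epidermis on either scale, with a median log2 difference of -9.06 as deposited and -9.83 rescaled. Together their paired transcripts took 4.52% and 6.75% of the TPM in ST, compared with 0.0237% and 0.0119% in the epidermis. The summed level in the epidermis was 0.524% of that in ST for replicates 1 and 0.177% for replicates 2. Samples were matched by replicate number here, a pairing that was not shown, so the 2 values depend on it. As many as 21 of the 52 genes were listed at 0 in epidermis replicate 2 and 4 in replicate 1.

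Proteins of the thin filament had this gap. TNNI2, the fast troponin I that holds the filament off at rest, was at 4333 and 7214 TPM in ST and at 14.7 and 0.41 TPM in the epidermis (-10.99 ± 1.28, adjusted p = 4.83e-05). TNNT3, the fast troponin T, was at 3612 and 7352 TPM against 13.1 and 0.62 TPM (-10.71 ± 1.15, adjusted p = 2.58e-05). ACTA1, skeletal actin, was at 967 and 1594 TPM against 4.81 and 0 TPM (-10.79 ± 1.37, adjusted p = 9.47e-05). In all of them epidermis replicate 1 was above replicate 2, and both were far below either ST sample.

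The thick filament behaved alike. MYH7 was at 1301 and 1938 TPM in ST and at 3.93 and 0 TPM in the epidermis (-11.29 ± 1.41, adjusted p = 8.14e-05). MYH4 was at 892 and 946 TPM against 2.40 and 0 TPM (-10.84 ± 1.34, adjusted p = 7.59e-05), and MYH13 was at 770.2 and 476 TPM against 0.90 and 0 TPM (-10.90 ± 1.06, adjusted p = 1.20e-05). These are myosin heavy chains, the motors of the filament, and their sequences are alike enough that reads may be shared between them. The myosin light chain MYL10 was at 9283 and 9089 TPM against 18.8 and 2.84 TPM (-10.27 ± 0.81, adjusted p = 2.95e-06), and MYL2 was at 1536 and 3383 TPM against 2.45 and 0.43 TPM (-10.94 ± 1.28, adjusted p = 4.79e-05). The 2 list members higher in the epidermis are known from other muscles. MYL7, an atrial light chain in mammals, was at 15.5 and 12.1 TPM in the epidermis against 1.47 and 2.01 TPM in ST (2.92 ± 0.31, adjusted p = 2.33e-05). NEBL, nebulette, was at 7.82 and 8.68 TPM against 3.01 and 1.57 TPM (1.87 ± 0.34, adjusted p = 0.00152).

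The tropomyosins, coiled proteins that lie along actin filaments, took opposite sides. TPM1 was at 3816 and 7922 TPM in ST and at 5.17 and 0.22 TPM in the epidermis (-12.05 ± 1.21, adjusted p = 1.50e-05), the largest difference among the named symbols. TPM3 was at 211 and 161 TPM in the epidermis and was listed at 0 in both ST samples (adjusted p = 9.79e-09). How reads were divided among the tropomyosin transcripts was not tested. The other paired transcripts, looked at after these values were seen, had the same direction within each gene. The second TPM3 transcript was at 26.1 and 24.9 TPM in the epidermis and at 4.64 and 5.21 TPM in ST (2.35 ± 0.23, adjusted p = 1.10e-05). Of the 3 TPM2 transcripts, 2 were near 0 in the epidermis, while the third was at 76.9 and 76.1 TPM there and at 414 and 775 TPM in ST (-2.89 ± 0.30, adjusted p = 1.89e-05).

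The membrane and calcium system of muscle and its energy supply were called in ST as well. Of 25 genes of excitation and calcium release, 22 were called higher in ST and 0 in the epidermis, with a median of -5.69, and 24 and 0 with rescaled TPM. ATP2A1, the calcium pump of the sarcoplasmic reticulum, was at 352 and 977 TPM in ST and at 1.09 and 0 TPM in the epidermis (-10.73 ± 0.95, adjusted p = 6.72e-06). SRL, sarcalumenin, a calcium buffer of that compartment, was at 122 and 141 TPM against 0.51 and 0.02 TPM (-8.93 ± 0.73, adjusted p = 3.65e-06). SLN, sarcolipin, an inhibitor of the pump, was uneven within ST, at 26.8 and 642 TPM, against 0.05 and 0 TPM in the epidermis (-10.07 ± 1.41, adjusted p = 0.000199).

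Of 18 genes of muscle glycogen and phosphagen metabolism, 16 were called higher in ST and 0 in the epidermis, with a median of -6.18, and 17 and 0 with rescaled TPM. CKM, the creatine kinase of muscle, was at 6022 and 10660 TPM in ST and at 18.03 and 0.96 TPM in the epidermis (-10.84 ± 1.09, adjusted p = 1.54e-05). ENO3, the muscle enolase, was at 3036 and 6088 TPM against 58.6 and 60.4 TPM (-6.17 ± 0.36, adjusted p = 7.08e-07). ALDOA, an aldolase, was at 2140 and 2913 TPM against 5.44 and 18.5 TPM (-7.94 ± 0.70, adjusted p = 6.02e-06). Whereas CKM was lower in epidermis replicate 2 than in replicate 1, ALDOA was higher there.

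Glycolytic enzymes outside that list were also weighted to ST. Of 12, 7 were called higher in ST and 3 in the epidermis, and 8 and 0 with rescaled TPM. GAPDH was at 8939 and 16120 TPM in ST and at 833 and 1062 TPM in the epidermis (-3.67 ± 0.35, adjusted p = 1.03e-05). PKM, pyruvate kinase, was at 1320 and 1969 TPM against 32.0 and 22.5 TPM (-5.90 ± 0.27, adjusted p = 2.63e-07), and LDHA, lactate dehydrogenase, was at 772 and 778 TPM against 160 and 132 TPM (-2.42 ± 0.19, adjusted p = 3.19e-06). GAPDH, often used as a reference gene, thus differed between these tissues. PGAM1, a phosphoglycerate mutase, was higher in the epidermis, with 17.6 and 11.6 TPM against 5.79 and 5.97 TPM (1.27 ± 0.29, adjusted p = 0.00694). PFKL, a phosphofructokinase, was at 5.02 and 4.71 TPM against 2.95 and 1.71 TPM (1.08 ± 0.27, adjusted p = 0.012). Neither call held with rescaled TPM (adjusted p = 0.177 and 0.207) or without epidermis replicate 1 (adjusted p = 0.0783 and 0.0651), and PFKL was not called without ST replicate 2 (adjusted p = 0.138). The epidermis then had 0 called members without epidermis replicate 1 and 1 without ST replicate 2.

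The mitochondrial respiratory chain differed by a smaller amount. Of 71 subunits, 64 were called higher in ST and 1 in the epidermis, with a median of -1.75, and 69 and 0 with rescaled TPM, with a median of -2.50. Their paired transcripts took 3.39% and 3.36% of the TPM in ST, compared with 1.19% and 1.12% in the epidermis. The ATP synthase subunit ATP5ME was at 1933 and 1999 TPM in ST and at 749.6 and 758 TPM in the epidermis (-1.38 ± 0.22, adjusted p = 0.000529). ATP5MF was at 1358 and 1380 TPM against 778 and 732 TPM (-0.86 ± 0.19, adjusted p = 0.00572). ATP5MC2 was at 1122 and 1511 TPM against 929 and 916 TPM, which was not called as deposited (-0.50 ± 0.21, adjusted p = 0.132) and was called with rescaled TPM (-1.25, adjusted p = 0.00874) and without ST replicate 1 (-0.71, adjusted p = 0.0433). COX8A, a subunit of cytochrome c oxidase, was higher in the epidermis, with 368 and 411 TPM against 214 and 232 TPM (0.80 ± 0.20, adjusted p = 0.0129). This difference was not stable. It was 0.05 with rescaled TPM (adjusted p = 0.953), it turned to -0.31 when the paired transcripts of the gene were summed (adjusted p = 0.271), and it was not called without epidermis replicate 2 (adjusted p = 0.0807).

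**Figure D3:**
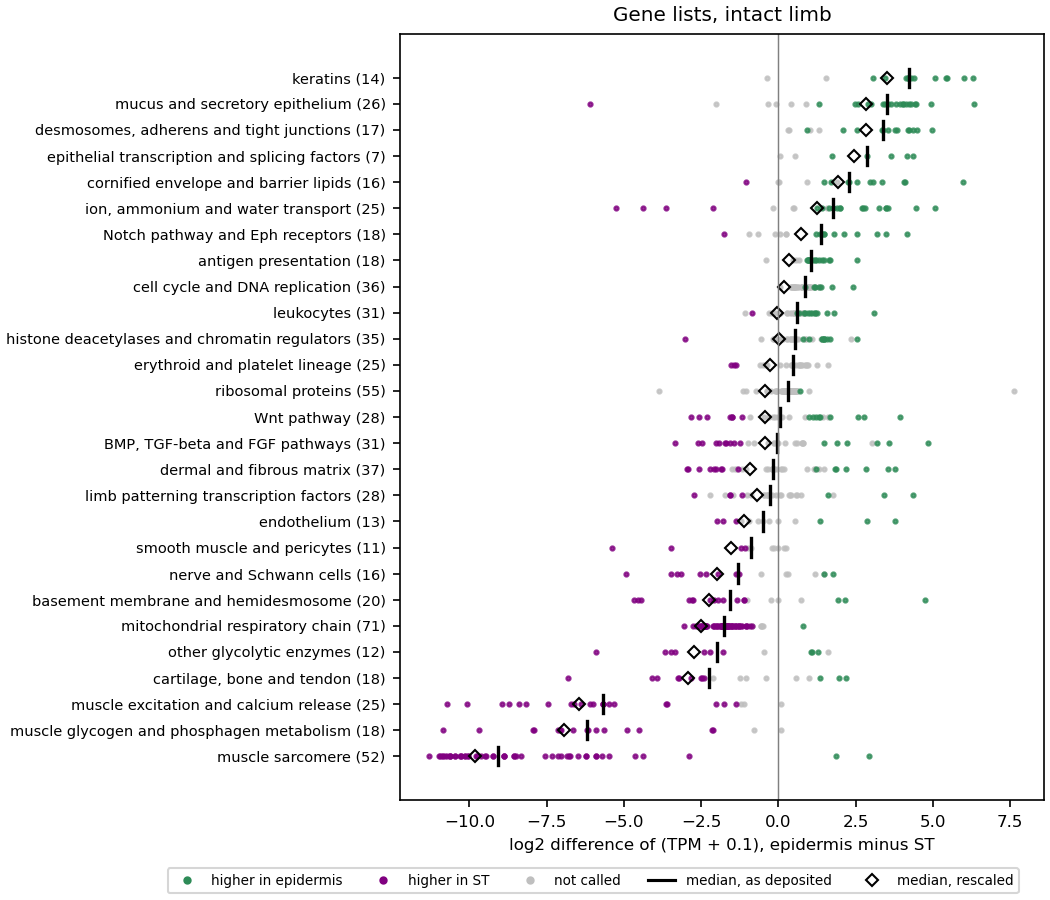
Log2 difference of TPM + 0.1, epidermis minus ST, for the members of 27 gene lists (one point each, green if called higher in the epidermis, purple if called higher in ST, grey if not called, number tested in parentheses), with the list median as deposited (bar) and with rescaled TPM (diamond). The sarcomere list has a median of -9.06 and the keratins 4.24, and rescaling moves every median to the left, for instance from 0.32 to -0.43 for the ribosomal proteins.

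The extracellular matrix did not split as the epithelial and muscle genes did. Of 20 genes of the basement membrane and of hemidesmosomes, 13 were called higher in ST and 3 in the epidermis, with a median of -1.57, and 15 and 1 with rescaled TPM. Without ST replicate 2 or without epidermis replicate 1, the number higher in ST was 8 each time, and without ST replicate 1 the number higher in the epidermis was 1. LAMB2, a laminin chain of muscle and nerve basement membranes, was at 12.8 and 20.9 TPM in ST and at 0.61 and 0.61 TPM in the epidermis (-4.53 ± 0.36, adjusted p = 3.23e-06). DAG1, dystroglycan, a laminin receptor, was at 20.8 and 9.09 TPM against 3.81 and 3.12 TPM (-1.96 ± 0.37, adjusted p = 0.00182). LAMB1, another laminin chain, was at 13.7 and 16.9 TPM against 7.33 and 7.73 TPM, which was not called as deposited (-1.0 ± 0.34, adjusted p = 0.0574) and was called with rescaled TPM (-1.75, adjusted p = 0.00106) and with the replicate number as a block (adjusted p = 0.0437). The members toward the epidermis included COL17A1, the transmembrane collagen by which basal keratinocytes are anchored, with 14.1 and 18.1 TPM against 0.30 and 0.78 TPM (4.76 ± 0.61, adjusted p = 9.40e-05). LAMC3, a laminin chain, was at 2.3 and 2.22 TPM against 0.27 and 0.65 TPM (2.16 ± 0.50, adjusted p = 0.00776) and lost its call with rescaled TPM (adjusted p = 0.0721) and without ST replicate 1 (adjusted p = 0.0672).

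Of 37 genes of dermal and fibrous matrix, 7 were called higher in the epidermis and 9 in ST, and 5 and 16 with rescaled TPM. With the replicate number as a block, 11 were called higher in the epidermis and 8 in ST. The most abundant were the chains of type I collagen. COL1A1 was at 377 and 1388 TPM in the epidermis and at 229 and 292 TPM in ST (1.49 ± 0.61, adjusted p = 0.118), and COL1A2 was at 545 and 1784 TPM against 347 and 448 TPM (1.32 ± 0.57, adjusted p = 0.133). For both, each epidermal sample was above each ST sample, and the distance between the epidermal replicates was wider than that between tissues. Without epidermis replicate 1, both were called higher in the epidermis (2.43, adjusted p = 0.0206, and 2.18, adjusted p = 0.0245), and both were also called in the fit with the replicate block, at the same differences (adjusted p = 0.0278 and 0.0363). MFAP5, a protein of elastic microfibrils, was higher in ST, with 374 and 608 TPM against 48.2 and 79.5 TPM (-2.94 ± 0.38, adjusted p = 9.99e-05). Among those higher in the epidermis were COL14A1 and COL16A1, both fibril-associated collagens. COL14A1 was at 1.93 and 3.46 TPM there and at 0.07 and 0.13 TPM in ST (3.77 ± 0.48, adjusted p = 8.93e-05), and COL16A1 was at 4.13 and 9.22 TPM against 0.26 and 0.71 TPM (3.54 ± 0.56, adjusted p = 0.000489).

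Genes of cartilage, bone and tendon were mostly higher in ST. Of 18, 9 were called higher in ST and 3 in the epidermis, with a median of -2.25, and 13 and 2 with rescaled TPM. Without ST replicate 1, the number higher in the epidermis was 5. TNMD, tenomodulin, a marker of tendon cells, was at 13.9 and 10.8 TPM in ST and at 0.02 and 0 TPM in the epidermis (-6.82 ± 0.70, adjusted p = 1.77e-05). COMP, a matrix protein of cartilage and tendon, was at 34.5 and 16.6 TPM against 6.68 and 0.20 TPM (-4.08 ± 0.98, adjusted p = 0.00922), and was not called without ST replicate 1 (adjusted p = 0.0628). MIA, a secreted cartilage protein, was at 18.6 and 19.5 TPM against 14.3 and 14.2 TPM, which was not called as deposited (-0.41 ± 0.19, adjusted p = 0.172) and was called with rescaled TPM (-1.16, adjusted p = 0.000533). SOX9, a transcription factor of cartilage and of several epithelia, was higher in the epidermis, with 2.18 and 2.34 TPM against 0.35 and 0.71 TPM (1.97 ± 0.29, adjusted p = 0.000279). RUNX2, a transcription factor of bone, was at 0.38 and 0.33 TPM in the epidermis and was listed at 0 in both ST samples (adjusted p = 0.00268). Both factors are at low levels, and RUNX2 was not called with a pseudocount of 1 (adjusted p = 0.132).

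Red cell transcripts did not follow the tissue but the sample. Of 25 genes of the erythroid and platelet lineage, 3 were called higher in ST and 0 in the epidermis, with a median of 0.47 as deposited that turned to -0.26 with rescaled TPM, when 4 and 0 were called. HBB1, a beta globin, was at 19558 and 19058 TPM in the epidermis and at 55203 and 3507 TPM in ST (0.47 ± 0.88, adjusted p = 0.802). HBB2 was at 4287 and 13910 TPM against 37553 and 2699 TPM (-0.38 ± 0.90, adjusted p = 0.859), and HBA, an alpha globin, was at 11083 and 7729 TPM against 25157 and 1340 TPM (0.67 ± 1.18, adjusted p = 0.784). For each of these 3 globins one ST sample was above both epidermal samples and the other below both. The lineage's paired transcripts took 18.6% of the TPM in ST replicate 1 and 1.15% in ST replicate 2, against 6.57% and 6.15% in the epidermis. Without ST replicate 1, 16 members were called higher in the epidermis and 1 in ST, among them HBB1 (2.46, adjusted p = 0.00444). Without ST replicate 2, 8 were called higher in ST, among them HBB2 (-2.28, adjusted p = 0.0347). The signs of HBB1 and HBA also turned with rescaled TPM (-0.28 and -0.08).

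Genes of smooth muscle, pericytes and nerve were more often called higher in ST than in the epidermis. Of 11 genes of smooth muscle and pericytes, 4 were called higher in ST and 0 in the epidermis, and 7 and 0 with rescaled TPM. CNN1, calponin, a regulator of smooth muscle contraction, was at 36.5 and 85.4 TPM in ST and at 4.75 and 5.01 TPM in the epidermis (-3.49 ± 0.35, adjusted p = 1.49e-05). ACTA2, smooth muscle actin, was at 96.6 and 138 TPM against 44.3 and 55.8 TPM (-1.22 ± 0.23, adjusted p = 0.00199). TAGLN, transgelin, was at 29.0 and 25.5 TPM against 15.3 and 10.5 TPM (-1.09 ± 0.25, adjusted p = 0.007) and lost its call without epidermis replicate 2 (adjusted p = 0.0865).

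Endothelial genes were mixed, with 3 of 13 called higher in the epidermis and 3 in ST as deposited, and 2 and 6 with rescaled TPM. Only 1 was called higher in ST without ST replicate 1, without epidermis replicate 1 or without epidermis replicate 2. MCAM, an adhesion molecule of endothelium and other cells, was at 147 and 177 TPM in the epidermis against 20.1 and 24.5 TPM in ST (2.86 ± 0.23, adjusted p = 3.72e-06). LYVE1, a hyaluronan receptor of lymphatic vessels, was at 11.3 and 9.23 TPM in ST against 2.25 and 2.80 TPM (-1.98 ± 0.35, adjusted p = 0.00125). ENG, endoglin, showed no separation, with 7.15 and 5.87 TPM in the epidermis between the ST values of 11.1 and 3.73 TPM.

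Of 16 genes of nerve and Schwann cells, 9 were called higher in ST and 2 in the epidermis, with a median of -1.32, and 9 and 1 with rescaled TPM. MBP, a myelin protein, was at 70.2 and 88.4 TPM in ST and at 2.76 and 2.24 TPM in the epidermis (-4.93 ± 0.70, adjusted p = 0.000221). A second, less abundant MBP transcript went the other way, with 2.28 and 2.84 TPM in the epidermis against 0.37 and 0.41 TPM in ST (2.43, adjusted p = 8.91e-06). PMP22, another myelin protein, was at 51.1 and 35.02 TPM against 7.82 and 6.56 TPM (-2.55 ± 0.29, adjusted p = 3.76e-05). PMP2, a fatty acid binding protein of myelin in mammals, did not share this pattern. It was at 223 and 156 TPM in the epidermis and at 141 and 174 TPM in ST (0.25 ± 0.30, adjusted p = 0.66), with the sign turned by rescaling (-0.50). The 2 members called higher in the epidermis were NGFR and ERBB3. NGFR, a neurotrophin receptor that basal keratinocytes of mammals also carry, was at 2.16 and 2.48 TPM against 0.58 and 0.63 TPM (1.78 ± 0.34, adjusted p = 0.00206). ERBB3, a neuregulin receptor, was at 2.99 and 6.34 TPM against 1.57 and 1.41 TPM (1.49 ± 0.33, adjusted p = 0.00574), and was not called with rescaled TPM (adjusted p = 0.155) or without epidermis replicate 2 (adjusted p = 0.0852).

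The counts of leukocyte genes turned with the scale, as the shares of all paired symbols did. Of 31, 13 were called higher in the epidermis and 1 in ST as deposited, but 3 and 5 with rescaled TPM. The median moved from 0.59 to -0.06, and that of all paired symbols from 0.48 to -0.13. Of all paired symbols, 18.1% were called higher in the epidermis and 29.0% in ST with rescaled TPM, and both leukocyte counts were below these shares. Without epidermis replicate 1, 6 were called higher in the epidermis, and with a pseudocount of 1 it was 8. LAPTM5, a lysosomal protein of blood cells, was at 67.9 and 74.1 TPM in the epidermis and at 25.3 and 16.4 TPM in ST (1.80 ± 0.22, adjusted p = 6.65e-05) and was called on both scales. LYZ, lysozyme, was at 120.5 and 69.2 TPM against 66.0 and 74.0 TPM (0.39 ± 0.25, adjusted p = 0.345). C1QC, a complement subunit made by macrophages, was level at 57.3 and 49.3 TPM against 50.6 and 53.0 TPM as deposited, and was called higher in ST with rescaled TPM (-0.71, adjusted p = 0.0465). TYROBP, an adaptor of myeloid receptors, was at 14.8 and 11.2 TPM in the epidermis and at 20.7 and 25.7 TPM in ST (-0.84 ± 0.21, adjusted p = 0.0134). This call was lost without ST replicate 2 (adjusted p = 0.108) and without epidermis replicate 2 (adjusted p = 0.13).

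Of 18 antigen presentation genes, 14 were called higher in the epidermis and 0 in ST as deposited, and 2 and 0 with rescaled TPM. PSME2, a proteasome activator subunit, was at 171 and 166 TPM in the epidermis and at 81.3 and 93.1 TPM in ST (0.95 ± 0.18, adjusted p = 0.00199). MR1, which presents metabolites of microbes, was at 38.0 and 38.5 TPM against 16.3 and 12.3 TPM (1.42 ± 0.23, adjusted p = 0.000624). PSMB9, an immunoproteasome subunit, was at 28.3 and 33.8 TPM against 15.0 and 11.7 TPM (1.22 ± 0.31, adjusted p = 0.0141). The tissues did not overlap for any of them, as for 48.4% of all transcripts tested, but with rescaled TPM their adjusted p were 0.671, 0.0791 and 0.439. PSMB9 also lost its call without ST replicate 2 (adjusted p = 0.109) and without epidermis replicate 2 (adjusted p = 0.0968).

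Cell cycle genes were low in both intact tissues. Of 36, 7 were called higher in the epidermis and 0 in ST as deposited, and 0 and 0 with rescaled TPM, where the median was 0.18. The count was unstable, with 0 without ST replicate 2 or without epidermis replicate 1, and 14 and 11 without ST replicate 1 or epidermis replicate 2. It was 16 with the replicate block, 15 when transcripts under a mean TPM of 1 were left out, 3 without the variance trend and 1 with a pseudocount of 1. PCNA, the clamp of replication, was at 34.0 and 21.2 TPM in the epidermis and at 25.6 and 12.8 TPM in ST. MCM7, a subunit of the replicative helicase, was at 6.23 and 5.55 TPM against 3.45 and 2.26 TPM. UBE2C, a ubiquitin-conjugating enzyme of mitosis, was at 7.61 and 3.74 TPM against 4.21 and 3.84 TPM. None of these was called (adjusted p = 0.327, 0.0705 and 0.423), although MCM7 was with a mean TPM of at least 1 (adjusted p = 0.0366), and the signs for PCNA and UBE2C turned with rescaled TPM.

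Ribosomal proteins served as a list that every cell uses. Of 55, 1 was called higher in the epidermis and 0 in ST, and 0 and 1 with rescaled TPM. Single members ranged from -3.87 to 7.64 on the log2 scale as deposited. With a mean TPM of at least 1, 7 were called higher in the epidermis. The median log2 difference of 0.32 as deposited turned to -0.43 with rescaled TPM. RPL36A was at 9183 and 6522 TPM in the epidermis and at 5046 and 6082 TPM in ST, RPL31 at 5657 and 5015 TPM against 3581 and 5006 TPM, and RPS15A at 4832 and 5495 TPM against 2833 and 5518 TPM. Their differences of 0.48, 0.33 and 0.38 were within 2 SE and became -0.27, -0.42 and -0.37 after rescaling. The list took 15.1% and 14.5% of the TPM in the epidermis and 9.78% and 14.5% in ST, so that ST replicate 1, the sample with the most globin transcript, was the lower one. The part of globin in this was not tested.

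Most called Notch and Eph genes were higher in the epidermis. Of 18, 11 were called higher in the epidermis and 1 in ST (median log2 difference 1.38), and 6 and 3 with rescaled TPM. Without epidermis replicate 2 the number higher in the epidermis was 7. JAG1, a Notch ligand, was at 17.3 and 21.3 TPM in the epidermis and at 1.62 and 2.51 TPM in ST (3.19 ± 0.25, adjusted p = 3.19e-06). EFNA1, an ephrin ligand, was at 9.82 and 12.4 TPM against 2.44 and 2.45 TPM (2.13 ± 0.20, adjusted p = 1.14e-05). NOTCH2, a receptor, was at 4.67 and 7.55 TPM against 2.53 and 2.42 TPM (1.23 ± 0.27, adjusted p = 0.00531), but was not called with rescaled TPM (adjusted p = 0.191) or without epidermis replicate 2 (adjusted p = 0.0748). HEY1, a target of Notch signalling in vessels and muscle, was higher in ST, with 6.27 and 4.79 TPM against 1.29 and 1.83 TPM (-1.77 ± 0.27, adjusted p = 0.00045).

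Members of the Wnt pathway were called on both sides, at shares near those of all paired symbols. Those shares were 32.5% for the epidermis and 18.6% for ST as deposited, and 18.1% and 29.0% with rescaled TPM. Of 28 members, 9 were called higher in the epidermis and 7 in ST, and 5 and 9 with rescaled TPM. Without ST replicate 2, 4 were called higher in the epidermis. CTNNB1, beta-catenin, which serves both in Wnt signalling and in adherens junctions, was at 35.4 and 46.1 TPM in the epidermis and at 17.5 and 14.2 TPM in ST (1.35 ± 0.22, adjusted p = 0.000662). WLS, the carrier needed for Wnt secretion, was at 21.1 and 17.4 TPM against 11.3 and 8.27 TPM (0.98 ± 0.31, adjusted p = 0.0426). This call did not hold with rescaled TPM (adjusted p = 0.564), without ST replicate 2 (adjusted p = 0.257) or without either epidermal replicate (adjusted p = 0.196 and 0.0852). Among those higher in ST were CTNNBIP1, RSPO3 and SFRP2. CTNNBIP1, an inhibitor of beta-catenin, was at 21.9 and 22.1 TPM in ST against 7.93 and 7.45 TPM (-1.51 ± 0.17, adjusted p = 3.58e-05). RSPO3, a secreted enhancer of Wnt signalling, was at 3.19 and 2.94 TPM against 0.47 and 0.25 TPM (-2.82 ± 0.32, adjusted p = 4.17e-05), and SFRP2, a secreted Wnt-binding protein, was at 18.6 and 27.8 TPM against 3.63 and 3.89 TPM (-2.57 ± 0.51, adjusted p = 0.00269).

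Of 31 genes of the BMP, TGF-beta and FGF pathways, 6 were called higher in the epidermis and 10 in ST, and 5 and 13 with rescaled TPM. The number higher in ST was 4 without ST replicate 2 and 4 without epidermis replicate 2, and 6 without epidermis replicate 1. TGFBI, a matrix protein induced by TGF-beta, was at 44.5 and 65.7 TPM in ST and at 17.3 and 15.9 TPM in the epidermis (-1.70 ± 0.29, adjusted p = 0.001). LTBP3, which binds latent TGF-beta, was at 7.87 and 11.6 TPM against 4.22 and 7.25 TPM, which was not called as deposited (-0.78 ± 0.38, adjusted p = 0.191) and was called with rescaled TPM (-1.52, adjusted p = 0.00951). Toward the epidermis were FGFBP1, a secreted carrier of FGF, and SOSTDC1, a secreted BMP and Wnt antagonist. FGFBP1 was at 15.4 and 34.6 TPM against 0.91 and 0.54 TPM (4.85 ± 0.47, adjusted p = 1.14e-05), and SOSTDC1 was at 6.64 and 16.1 TPM against 0.83 and 0.73 TPM (3.57 ± 0.57, adjusted p = 0.000534).

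Limb patterning transcription factors were low in the intact limb. Of 28, 3 were called higher in the epidermis and 4 in ST, and 2 and 9 with rescaled TPM. Leaving out any of the 4 samples lowered the number higher in ST to 2. SP8, a factor of the limb ectoderm in embryos, was at 1.39 and 4.11 TPM in the epidermis and at 0.01 and 0.04 TPM in ST (4.34 ± 0.49, adjusted p = 3.79e-05). IRX3 was at 1.11 and 0.84 TPM in the epidermis and was listed at 0 in both ST samples (adjusted p = 0.00488). SHOX, a factor of limb skeletal growth, was at 2.17 and 2.45 TPM in ST and at 0.53 and 0.93 TPM in the epidermis (-1.58 ± 0.51, adjusted p = 0.0444). Without any single sample SHOX was not called (adjusted p between 0.0627 and 0.242). EYA2, at 3.08 and 3.28 TPM against 1.95 and 2.22 TPM, and LMX1B, a factor of dorsal limb identity, at 1.92 and 2.26 TPM against 1.87 and 2.14 TPM, were not called and changed sign with rescaled TPM (-0.14 and -0.67).

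Histone deacetylases and chromatin regulators were near level. Of 35, 10 were called higher in the epidermis and 1 in ST (median log2 difference 0.53), and 5 and 3 with rescaled TPM, with a median of 0.03. KDM5B, a histone demethylase, was at 8.58 and 10.8 TPM in the epidermis and at 3.47 and 2.91 TPM in ST (1.57 ± 0.21, adjusted p = 0.000133). SMARCA5, a chromatin remodeller, was at 9.77 and 9.04 TPM against 3.55 and 3.18 TPM (1.46 ± 0.21, adjusted p = 0.000288). Both calls held with rescaled TPM. CBX3, a heterochromatin protein, was at 16.9 and 15.6 TPM against 16.1 and 19.7 TPM, not called as deposited (adjusted p = 0.769) and called higher in ST with rescaled TPM (-0.88, adjusted p = 0.00722). HDAC9, a deacetylase that muscle expresses in mammals, was the member higher in ST, with 2.19 and 1.49 TPM against 0.10 and 0.18 TPM (-3.01 ± 0.35, adjusted p = 4.32e-05).

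Some transcripts were above 0 in 1 tissue alone. In the whole table, 435 transcripts were listed at 0 in both epidermal samples with at least 1 TPM in both ST samples, and 292 were listed at 0 in both ST samples with at least 1 TPM in both epidermal samples. With at least 5 TPM these numbers were 110 and 25. Symbols were paired with 41 and 10 of them. The highest TPM among all of them, 2734 in an ST sample, belonged to a transcript with no paired symbol. Among the paired ones, those with the highest TPM on each side, chosen after their values were seen, were TNNI2, of which a second transcript was at 69.4 and 114 TPM in ST, MYH7B, a myosin heavy chain, at 67.8 and 74.9 TPM, and TPM3 on the epidermal side. The list of ST also held MYF6, a muscle regulatory transcription factor, at 21.7 and 19.1 TPM, and CHRNA1, a subunit of the acetylcholine receptor of the neuromuscular junction, at 12.4 and 8.74 TPM. The list of the epidermis held a transcript of LECT2, a secreted protein, at 2.48 and 7.99 TPM. Another LECT2 transcript was at 17.3 and 2.73 TPM in the epidermis and at 4.75 and 9.58 TPM in ST. Further ones were called on either side. Since the depth is unknown from the deposited table, a listed 0 does not show that a transcript is absent. ST replicate 2 had the fewest transcripts above 0 TPM of all samples (72566).

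A further set of genes had transcripts on both sides. Of 752 symbols with at least 2 tested transcripts, 20 (2.66%) had one transcript called higher in the epidermis and another called higher in ST on both scales. Examples were chosen after their values were seen. For AQP4, the main transcript described above was epidermal, while a second was at 3.03 and 3.21 TPM in ST and at 0.03 and 0 TPM in the epidermis (log2 difference -4.82, adjusted p = 2.63e-06). ASPH, an aspartyl hydroxylase with products in the muscle calcium store in mammals, had a transcript at 13.0 and 12.4 TPM in the epidermis and at 0.73 and 0.26 TPM in ST (4.55, adjusted p = 2.85e-06) and another at 21.6 and 9.55 TPM in ST and at 0.05 and 0.05 TPM in the epidermis (-6.59, adjusted p = 4.22e-06). KAZALD1, a blastema gene of the axolotl, had one at 10.8 and 15.7 TPM in ST against 2.04 and 1.66 TPM (-2.76, adjusted p = 6.61e-05) and another at 5.44 and 3.97 TPM in the epidermis against 0.07 and 0 TPM (5.19, adjusted p = 1.11e-05). Whether such transcripts come from one gene or from related genes is not given in the sources used here.

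The intact-limb difference was then set beside that of the DMSO controls at 3 and 8 dpa, which share no sample with it. By the paper, these controls came from the most distal part of the amputated limb. Time and the piece of limb sampled thus cannot be told apart. Of the 20394 transcripts called at 0 dpa, 72.3% had a difference of the same sign at 3 dpa and 77.2% at 8 dpa, and 34.0% and 38.1% were also called in that direction. With rescaled TPM, 17918 transcripts were called at 0 dpa, the shares of the same sign were 83.0% and 85.0%, and 42.3% and 42.0% were also called. These transcripts were chosen by their call at 0 dpa, so a smaller difference later was favoured in advance. The shares of all tested transcripts called at 3 and 8 dpa are not given here, so these shares are a description. In a test of the change itself, the difference changed for 6503 transcripts (6.08%) at 3 dpa and 5026 (4.7%) at 8 dpa. Toward ST changed 5.38% and 3.85% of those tested, and toward the epidermis 0.693% and 0.847%. A change in either direction can come from a rise or a fall in either tissue. The balance again turned with the scale. With rescaled TPM 3223 (3.01%) and 2543 (2.38%) changed, 1.95% and 1.69% of those tested toward the epidermis and 1.06% and 0.687% toward ST. The median change over all tested transcripts was -0.56 at both times as deposited, and 0.01 and -0.02 with rescaled TPM. List medians at 3 and 8 dpa, given as deposited only, hold this general shift. Leaving out 1 of the 4 intact samples gave 3565 to 9967 transcripts at 3 dpa and 1948 to 8247 at 8 dpa. The lowest numbers came without epidermis replicate 2 and the highest without ST replicate 1.

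Among the paired symbols, the change was toward the epidermis for 5.89% at 3 dpa and 7.31% at 8 dpa, and toward ST for 25.3% and 22.7%. With rescaled TPM these shares were 15.4% and 13.8% toward the epidermis, and 9.24% and 6.77% toward ST. These symbols came from lists of transcripts that changed after amputation, so their counts are given as a description. The muscle and respiratory lists had medians nearer to 0 after amputation. The sarcomere median went from -9.06 at 0 dpa to -6.15 at 3 dpa and -6.04 at 8 dpa, with 12 and 13 of 52 members changed toward the epidermis and 0 the other way, and 16 and 20 with rescaled TPM. Among those changed at 3 dpa, MYL10 went from 9283 and 9089 to 2301 and 593 TPM in ST. In the epidermis it went from 18.8 and 2.84 to 7.83 and 37.1 TPM. The respiratory chain median went from -1.75 to -0.58 and -0.29, with 38 and 56 of 71 members changed toward the epidermis and 0 the other way, and 65 and 64 with rescaled TPM. For glycogen and phosphagen metabolism the median went from -6.18 to -4.52 and -2.94, with 5 and 13 of 18 members changed toward the epidermis, and 8 and 17 with rescaled TPM. From 0 to 8 dpa, ENO3 went from 3036 and 6088 to 476 and 551 TPM in ST. In the epidermis it went from 58.6 and 60.4 to 52.0 and 71.8 TPM. ALDOA fell in ST, from 2140 and 2913 to 574 and 489 TPM. It rose in the epidermis, from 5.44 and 18.5 to 81.4 and 68.7 TPM.

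The keratin median was 4.24, 7.16 and 4.03, and 3 and 1 of 14 members changed toward the epidermis and 0 toward ST, and 6 and 1 with rescaled TPM. The members changed on the deposited scale, named after their values were seen, were KRT5, KRT17 and KRT75 at 3 dpa and KRT75 at 8 dpa. The junction median was 3.39, 3.27 and 3.77, with 1 of 17 members changed toward the epidermis and 1 toward ST at 3 dpa, and 0 and 2 at 8 dpa, and with rescaled TPM 3 and 0 at 3 dpa and 0 and 0 at 8 dpa. The leukocyte median went from 0.59 to -1.72 and -0.62. Of 31 members, 27 and 15 changed toward ST and 1 toward the epidermis at each time. With rescaled TPM, 14 and 2 changed toward ST and 1 toward the epidermis at each time. The rescaled count of 2 at 8 dpa was near the share of all paired symbols, 6.77%. The dermal matrix median went from -0.17 to -1.46 and -2.15. Of 37 members, 8 and 15 changed toward ST, and 2 and 4 with rescaled TPM. Among all paired symbols, 25.3% and 22.7% changed toward ST, and 9.24% and 6.77% with rescaled TPM. The dermal counts at 3 dpa were below these shares on both scales, and those at 8 dpa were above them.

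**Figure D4:**
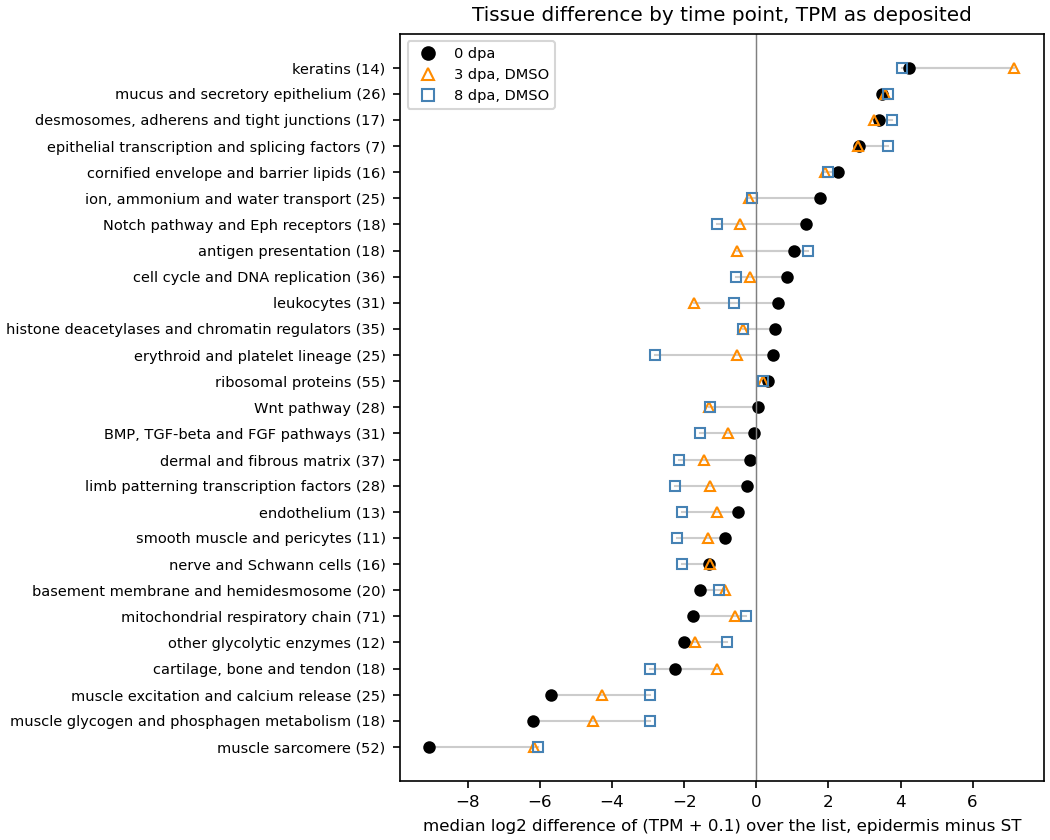
Median log2 difference of TPM + 0.1, epidermis minus ST, over each of 27 gene lists at 0 dpa (black), 3 dpa with DMSO (orange triangles) and 8 dpa with DMSO (blue squares), TPM as deposited, with the number of members in parentheses. The sarcomere median moves from -9.06 to -6.15 and -6.04 and the leukocyte median from 0.59 to -1.72 and -0.62. Over all tested transcripts the median change was -0.56 at both times, and 0.01 and -0.02 with rescaled TPM.

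TPM3 had the largest change among the symbols with the largest differences. Listed at 0 in both intact ST samples, it was at 113 and 247 TPM in ST at 3 dpa and at 451 and 409 TPM at 8 dpa, while the epidermis was at 146 and 234 TPM and at 326 and 262 TPM. The tissues thus overlapped at 3 dpa, and the change of the difference was called at both times (adjusted p = 1.06e-06 and 4.66e-07). TPM3 was chosen for its difference at 0 dpa, which also enters this change, so these adjusted p are a description. TPM1 stayed on the side of ST, at 5482 and 1669 TPM at 3 dpa and at 427 and 493 TPM at 8 dpa, against at most 11.7 TPM in the epidermis.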

How the data were processed

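Per the labels and the paper, the authors processed the reads with cutadapt, Bowtie2 (against an axolotl transcriptome) and RSEM. They deposited TPM per transcript, rounded to 2 decimals. The deposited table holds no counts, and read totals were not used here. Depth is therefore unknown from the table, and no intervals for counting error are given. Reads of near-identical transcripts (globins, keratins, myosins, tropomyosins, ribosomal proteins) may be split between them. Symbols came from the study's lists of changed transcripts, of which shortened copies were read, names only. By the paper, its annotation rests on BLAST matches to UniProt proteins, with names mapped to human gene symbols. Functions given here are those of the matched genes. Whether each transcript is the axolotl counterpart of that gene was not tested. The paper and the labels name different library kits.

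All 20 samples in 10 groups entered 1 limma model (version 3.58.1, R 4.3.3) of log2(TPM + 0.1), with a trend of the prior variance, over transcripts above 0 TPM in 5 or more samples. Tests were two-sided, adjusted by Benjamini-Hochberg over all transcripts tested, and called at an adjusted p under 0.05. An exact permutation test of 2 against 2 samples cannot go below p = 0.333. Rescaled TPM were divided by median-ratio factors.

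Named were the 10 paired symbols with the largest difference in each direction (called on both scales, replicates not overlapping, placeholder names left out), the 3 most abundant members of each of 27 lists, and up to 2 called members against a list's majority. Members and lists were chosen with earlier results of these data known.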

Additional observations from a re-analysis of the deposited data

Results flagged for a closer look

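The tissue difference was compared between the intact limb and the DMSO controls by a test of the change itself. It changed for 6503 transcripts from 0 to 3 dpa and for 5026 from 0 to 8 dpa. Among the 20 symbols with the largest intact-limb differences, TPM3 changed by -10.70 on the log2(TPM + 0.1) scale at 3 dpa (adjusted p = 1.06e-06) and by -11.40 at 8 dpa (adjusted p = 4.66e-07), values that depend on the pseudocount because TPM3 was listed at 0 in intact ST. MUC5AC, also listed at 0 there, changed by -3.94 at 3 dpa (adjusted p = 0.0329), and not with rescaled TPM (adjusted p = 0.0737). CRISPLD1 changed by 2.55 ± 0.67 at 3 dpa (adjusted p = 0.0397), and ST at 3 dpa was listed at 0 in both samples. These symbols were chosen for their difference at 0 dpa, which also enters the change. A smaller difference after amputation was thus favoured in advance. The symbols also come from lists of transcripts that changed after amputation, so their adjusted p are given as a description. No cause of these changes was tested.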

How the results depend on the processing

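Of 95 named genes called as deposited, 84 kept direction and call with rescaled TPM and 11 lost the call, 87 to 92 kept them when 1 intact-limb sample was left out, and 0 kept the call in limma on the 4 intact-limb samples alone. COX8A reversed when paired transcripts were summed (-0.31). With rescaled TPM, 9036 transcripts were higher in the epidermis and 8882 in ST, the overall median was 0.00, and the change of the difference was called for 3223 at 3 dpa and 2543 at 8 dpa. With a mean TPM of at least 1, 2894 were higher in ST and the median was 0.77, and with a pseudocount of 1 the change at 8 dpa was called for 8224. Those 4 samples alone gave 0 calls in limma, in either direction, with 25141 transcripts at an unadjusted p under 0.05. With at least 5 TPM, 25 and 110 transcripts were listed at 0 in the other tissue. Leaving out 1 sample gave 13494 to 20399 calls, 10043 to 16416 higher in the epidermis, 3259 to 3983 higher in ST, a median of 0.24 to 0.56, and 3565 to 9967 changes at 3 dpa and 1948 to 8247 at 8 dpa. That both tissues of a condition came from the same animals is inferred from the animal numbers given. Whether a replicate number marks the same pool is not given. For a replicate at 0 dpa and for the DMSO controls at 3 dpa, epidermis and ST samples of one replicate number carry different numbers in their names. Deviations of samples with the same replicate number correlated at 0.138 at 0 dpa and between 0.00301 and 0.0793 in the other conditions. Pairing by replicate number was thus not shown. With the replicate block, 19869 transcripts were called, COL1A1, COL1A2 and LAMB1 passed the threshold (adjusted p = 0.0278, 0.0363 and 0.0437), and the members higher in the epidermis went from 7 to 11 for the dermal matrix and from 7 to 16 for the cell cycle. The block ended the call of 0 named genes.

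The signs of some genes not called as deposited turned. With rescaled TPM the log2 differences were -0.74 for CNFN, -0.69 for TEAD3, -0.42 for CDH1, -0.24 for ATP1B3, -0.27 for RPL36A, -0.42 for RPL31, -0.37 for RPS15A, -0.74 for ENG, -0.28 for HBB1, -0.08 for HBA, -0.50 for PMP2, -0.36 for LYZ, -0.71 for C1QC, -0.18 for PCNA, -0.34 for UBE2C, -0.14 for EYA2 and -0.67 for LMX1B. With 1 sample left out they ranged from -0.24 to 0.27 for CNFN, -0.18 to 0.27 for TEAD3, -0.10 to 0.86 for RPS15A, -0.77 to 0.78 for ENG, -1.52 to 2.46 for HBB1, -2.28 to 1.52 for HBB2, -1.44 to 2.79 for HBA, 0.00 to 0.51 for PMP2, -0.01 to 0.78 for LYZ, -0.07 to 0.15 for C1QC, -0.10 to 0.90 for UBE2C and -0.06 to 0.17 for LMX1B, and the highest value for CBX3 was 0.01. With a pseudocount of 1 ENG was at -0.02, and with summed transcripts HBB2 was at 0.20. The cause of these shifts was not tested. With 2 samples a tissue and depth unknown from the deposited table, low TPM values are the least certain.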
